A study of Mus musculus with 7 samples.

Results

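The clustered histone genes encode the replication-dependent histones, the bulk packaging proteins of chromatin. They were taken as all genes of the deposited table whose symbol begins with Hist1h, Hist2h, Hist3h or Hist4h, which gave 70 of 40743 genes. Of these, 56 belong to the Hist1 cluster, all on chromosome 13, 10 to Hist2 on chromosome 3, 3 to Hist3 on chromosome 11 and 1 to Hist4 on chromosome 6. By family they are 6 genes of the linker histone H1 and, among the core histones, 20 of H2A, 19 of H2B, 12 of H3 and 13 of H4. In the GENCODE annotation of GRCm38, 67 are protein-coding and 3 are pseudogenes (Hist1h2aj, Hist1h2al and Hist3h2bb-ps).

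The study asked how microglia without the transcription factor interferon regulatory factor 8 (Irf8) respond to laser-induced choroidal neovascularisation, a model in which laser burns make choroidal vessels grow towards the retina. RNA-seq was performed on retinal microglia (rMG) sorted as CD45low CD11b+ Cx3cr1GFP/+ Ly6C- Ly6G- cells from adult mice labelled Irf8 KO (Irf8-/- Cx3cr1GFP/+). 3 libraries came from mice without laser treatment and 4 from mice taken 7 days after laser treatment, referred to as the unlasered and the lasered group. Each library held about 10000 cells on average from 3 to 4 pooled mice. For the lasered mice the central 70% of the retina was used, so the laser and the part of the retina sampled cannot be told apart. The deletion and the GFP insertion are carried by every mouse of both groups, and libraries of Irf8-competent mice were not analysed here.

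Core histones form the protein spool on which DNA is wound, and H1 binds the DNA between spools. Cells make most of their histone protein in S phase, when new DNA must be packaged, and the clustered genes are switched on together for this purpose. Their messenger RNAs are unusual in that they end in a short stem-loop bound by the protein SLBP instead of a poly(A) tail. The cDNA kit used here primes on poly(A), so a clustered histone messenger is seen mainly where a polyadenylated form exists or where priming is internal. Most messengers of replacement histones, such as those of the H3f3 genes, are polyadenylated and are expressed outside S phase as well.

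The stem-loop is shown for the members on which the results below turn, since it marks the messengers that normally lack a poly(A) tail. The sequences were read 5′ to 3′ from GENCODE M21 transcripts. Capitals mark the stem, loop and returning stem, 16 bases in all, and lower case marks 5 bases on either side.
Hist1h1d: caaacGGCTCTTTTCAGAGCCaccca
Hist1h1e: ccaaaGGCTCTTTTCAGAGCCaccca
Hist1h1c: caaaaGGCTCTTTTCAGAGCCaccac
Hist3h2a: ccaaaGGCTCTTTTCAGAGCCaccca
Hist1h2ac: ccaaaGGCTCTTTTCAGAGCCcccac
Hist1h2ao: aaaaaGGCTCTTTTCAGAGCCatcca
Hist1h3e: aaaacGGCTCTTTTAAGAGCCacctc
Hist1h3c: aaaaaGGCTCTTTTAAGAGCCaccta
Hist2h3c1: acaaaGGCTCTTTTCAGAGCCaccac
Hist2h3c2: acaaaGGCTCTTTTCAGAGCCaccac
Hist1h4d: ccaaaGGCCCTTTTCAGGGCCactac

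The search required 6 bases beginning with GG, a loop of 4 beginning with TT or CT, and the reverse complement of the first 6. Likeness within the element is therefore set by the search, and a variant form would have been missed. The stem GGCTCT with the loop TTTC was present in 26 members, the same stem with TTTA in 6, and the stem GGCCCT with TTTC in 7. A stem-loop of this form lay in an annotated transcript of 44 of the 67 protein-coding members and of 223 of 21810 other protein-coding genes (1.02%). A polyadenylation signal (AATAAA or ATTAAA) lay in the last 100 annotated bases of 18 of the 67 (26.9%), against 80.4% of other protein-coding genes. 13 protein-coding members have no annotated base after the stop codon, so the element could not be looked for there. Among all 70 members, 14 had both the stem-loop and the signal, 30 the stem-loop only, 4 the signal only and 22 neither.

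Promoters were read from RefSeq (GRCm38.p6), where 61 members matched by symbol or synonym. The CCAAT box (CCAAT, or ATTGG on the other strand) was found in 52 of 61 promoters (85.2%), and in 37.4% of all promoters of the same 300 bases. A TATA motif (TATAAA or TATATA, on either strand) was found in 41 (67.2%), against 17.1% of all promoters, and both were found in 57.4% against 6.62%. The promoter of Hist1h1d is printed because this was the member that passed the test. The promoter of Hist1h2ac is printed because it spans the whole stretch between Hist1h2ac and the H2B gene Hist1h2bc, which are read in opposite directions from it. Capitals mark the CCAAT and TATA motifs, overlapping where they touch, and a match is a description of these letters only.
Hist1h1d, chr13:23554782-23555081, plus strand: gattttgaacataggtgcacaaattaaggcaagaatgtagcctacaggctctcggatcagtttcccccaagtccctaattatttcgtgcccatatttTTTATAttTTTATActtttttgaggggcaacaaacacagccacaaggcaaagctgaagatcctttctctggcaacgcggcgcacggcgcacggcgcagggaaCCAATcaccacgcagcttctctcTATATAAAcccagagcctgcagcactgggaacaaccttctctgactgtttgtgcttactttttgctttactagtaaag
Hist1h2ac, chr13:23683910-23684209, minus strand: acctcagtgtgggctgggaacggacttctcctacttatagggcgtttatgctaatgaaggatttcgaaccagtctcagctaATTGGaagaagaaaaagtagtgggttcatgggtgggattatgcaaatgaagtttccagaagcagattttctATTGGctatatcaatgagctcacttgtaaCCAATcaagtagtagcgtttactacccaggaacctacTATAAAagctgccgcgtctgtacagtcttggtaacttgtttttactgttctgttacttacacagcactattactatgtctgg

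The deposited values are CPM, reads of a gene relative to the sum of all genes in its library, and whole reads could be recovered from them. The libraries held 20427558 to 36022954 reads in the unlasered group and 37133297 to 45919042 in the lasered group. A level of 3 reads, the floor used here, corresponded to between 0.0653 and 0.147 CPM per library and covers counting error only. Irf8 itself, listed only jointly with the overlapping gene Gm20388, was read at 530, 489 and 507 CPM in the unlasered libraries and at 463, 465, 475 and 582 CPM in the lasered ones. This goes against the label, although a total per gene cannot tell the exons apart, and the libraries are therefore called labelled Irf8 KO. The 9 microglia markers were all measured and summed to between 22534 and 30430 CPM. The sum of 15 rod photoreceptor genes was 2112, 19228 and 5566 CPM in unlasered libraries 1, 2 and 3 and 988, 431, 796 and 309 CPM in lasered libraries 1 to 4, with none of the 15 at 0 in all libraries. The groups did not overlap, and 13 of the 15 rod genes were called lower in lasered libraries. Of the markers of Mueller glia, retinal pigment epithelium, neutrophils, endothelial and erythroid cells, 1 gene passed (Dkk3 of Mueller glia, lower in lasered libraries), and the erythroid sum was 84.8 CPM in lasered library 1 and at most 1.42 CPM elsewhere. By its rod sum, unlasered library 2 stands apart, and values without it are given for the members described below where they change a direction or an overlap. This library was also the highest of its group in 38 of the 43 tested members, so leaving it out mostly favours higher lasered values.

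The clustered histone genes were low in these cells. Of 70 members, 41 had a mean of at least 1 CPM, and 43 reached 1 CPM in at least 3 libraries and were tested. The 3 highest, Hist3h2a, Hist1h2bc and Hist1h1c, made up 43.4% of the summed CPM. 2 members, the testis-type genes Hist1h1t and Hist1h2aa, did not exceed 3 reads in any library.

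Hist3h2a, an H2A gene on chromosome 11 (58954685 to 58956830), was the highest member by CPM. Its level was 65.2, 102 and 45.1 CPM in the unlasered libraries and 58.1, 47.2, 54.3 and 60.2 CPM in the lasered ones, but all of its reads are listed jointly with the overlapping gene Trim17. Hist1h2bc, an H2B gene (chromosome 13, 23684199 to 23692908), was read at 37.3, 79.1 and 28.7 CPM in unlasered and at 35.7, 42.1, 38.3 and 31.8 CPM in lasered libraries. In both genes unlasered library 2 was the highest of all 7 libraries and the groups overlapped. The log2 difference of Hist1h2bc was -0.25 with all libraries and 0.16 without unlasered library 2, and that of Hist3h2a was -0.28 and 0.013. Per kilobase of annotated exon, Hist1h2bc had the highest level (36.2 CPM per kb), followed by Hist3h2a (28.7 CPM per kb) and the linker histone gene Hist1h1c (26.3 CPM per kb). The order of these 3 was the same in each unlasered library, varied among the lasered ones and was not tested. After them came Hist1h2ap (16.7 CPM per kb) and Hist1h2ao (15.0 CPM per kb), a nearly identical H2A pair.

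**Figure D1:**
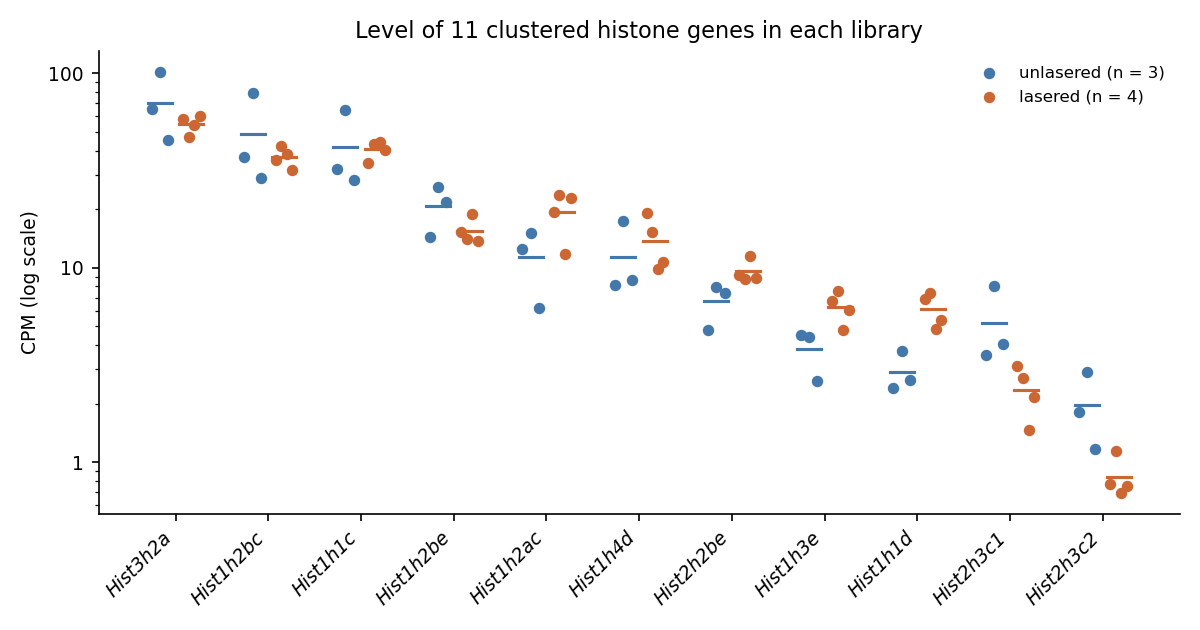
Level in CPM (log axis) of 11 clustered histone genes in the 3 unlasered (blue) and 4 lasered (orange) libraries, where each dot is a library and each bar a group mean. Hist1h1d, Hist1h3e and Hist2h2be lie higher in every lasered library, Hist2h3c1 and Hist2h3c2 lie lower, and the remaining 6 genes overlap.

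Summed over families, the groups overlapped in all 5 with all 7 libraries. The H1 genes summed to 39.6, 78.7 and 35.9 CPM in unlasered and to 56.5, 68.0, 58.4 and 56.6 CPM in lasered libraries. The H2A genes summed to 117, 169 and 80.3 CPM and to 143, 151, 102 and 144 CPM, and the H2B genes to 71.5, 149 and 73.1 CPM and to 77.7, 84.1, 84.5 and 72.3 CPM. In all 3 of these families unlasered library 2 held the highest sum of the 7 libraries. The H3 genes summed to 18.2, 24.9 and 12.5 CPM against 24.8, 28.9, 16.4 and 22.5 CPM, and the H4 genes to 24.7, 54.6 and 25.3 CPM against 51.0, 52.0, 32.2 and 30.3 CPM. Over all 70 members the level was 325 ± 133 CPM (SD, n = 3) in unlasered and 339 ± 38.4 CPM (SD, n = 4) in lasered libraries, and the groups overlapped. That overlap rested on unlasered library 2. Without it the remaining unlasered sums (271 and 227 CPM) lay below every lasered sum (294 to 384 CPM). The H1 and H4 sums of the groups then did not overlap either, whereas the H2A, H2B and H3 sums still did. Unlasered library 2 held the highest unlasered sum in every family, so leaving it out can only favour higher lasered sums. The separation without it is a description and not a result about the members.

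The spread of the unlasered group followed a single library. Unlasered library 2 was the highest of its group in 60 of 70 members and in 38 of the 43 tested, whereas it was the highest in 32.5% of all genes tested. This is also the library with the largest rod photoreceptor sum, and the part of rod RNA in the histone levels was not tested. An example of a member high in that library is Hist3h2ba, an H2B gene. It had 0.147, 4.12 and 0.500 CPM in unlasered libraries and 0.408, 0.423, 0.348 and 0 CPM in lasered ones. Within the lasered group, library 3 was the lowest in 31 of the 43 tested members, against 26.4% of all genes tested. Lasered library 2 was the highest of the 4 in 22 of the 43, against 27.4%. In bulk samples, fewer cells of a type and less RNA per cell cannot be told apart.

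**Figure D2:**
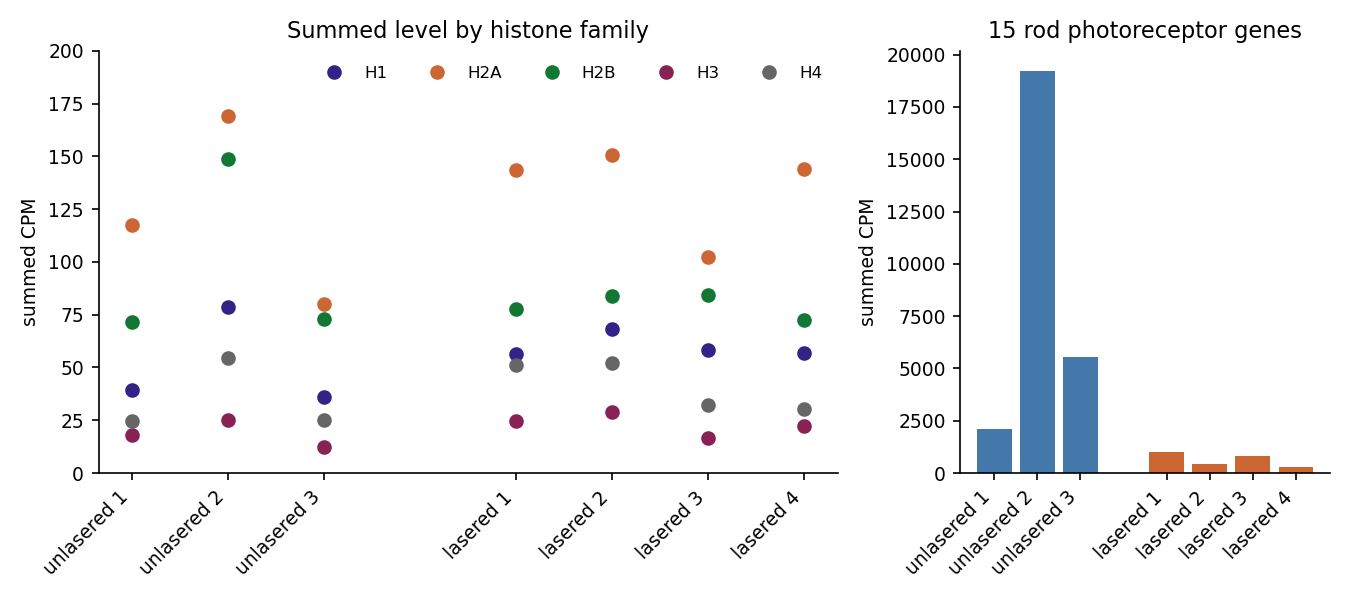
Left, summed level in CPM of the H1, H2A, H2B, H3 and H4 genes in each of the 7 libraries, where each dot is a family. Right, summed CPM of 15 rod photoreceptor genes as bars from 0, and unlasered library 2 is the highest both for the rod sum and for the H1, H2A, H2B and H4 sums.

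To compare the groups, log2(CPM + 1) was fitted with limma over the 17496 genes tested. Of the 43 tested members, 1 rose in lasered libraries and 0 fell at an adjusted p under 0.05 (limma, Benjamini-Hochberg). Over all genes tested, 3.86% rose and 3.07% fell, so the share of members called (2.33%) was below the background of 6.93% in either direction. At an unadjusted p under 0.05, 9 members were higher (20.9%, against 11.0% of all genes tested) and 2 lower (4.65%, against 11.6%). The groups did not overlap in 4 tested members that were higher (9.30%, against 10.4%) and 3 that were lower (6.98%, against 10.7%). In 11 further tested members the overlap rested on unlasered library 2 alone, and without it every lasered value was the higher. In 0 members did every lasered value become the lower. That library was the highest of its group in 38 of the 43, and leaving out the highest unlasered library can only favour higher lasered values. The count was added after the data had been seen and no share over all genes was computed, so it is not a result about the members. With edgeR on the recovered reads 1 member rose, where 3.78% of all genes rose and 3.45% fell. With DESeq2 3 members rose, where 6.73% of all genes rose and 6.52% fell. No member fell with either. The median log2 difference was 0.17 over the tested members and -0.01 over all genes tested, as a description, with 28 of 43 members positive. It was 0.35 without unlasered library 2 (37 of 41 positive) and 0.02 without unlasered library 3 (22 of 43 positive). 12 of the 43 had under 3 unlasered libraries at 1 CPM and reached the level needed for testing only with lasered libraries counted, which favours members that are high there. The p-values measure the spread between these pooled libraries.

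**Figure D3:**
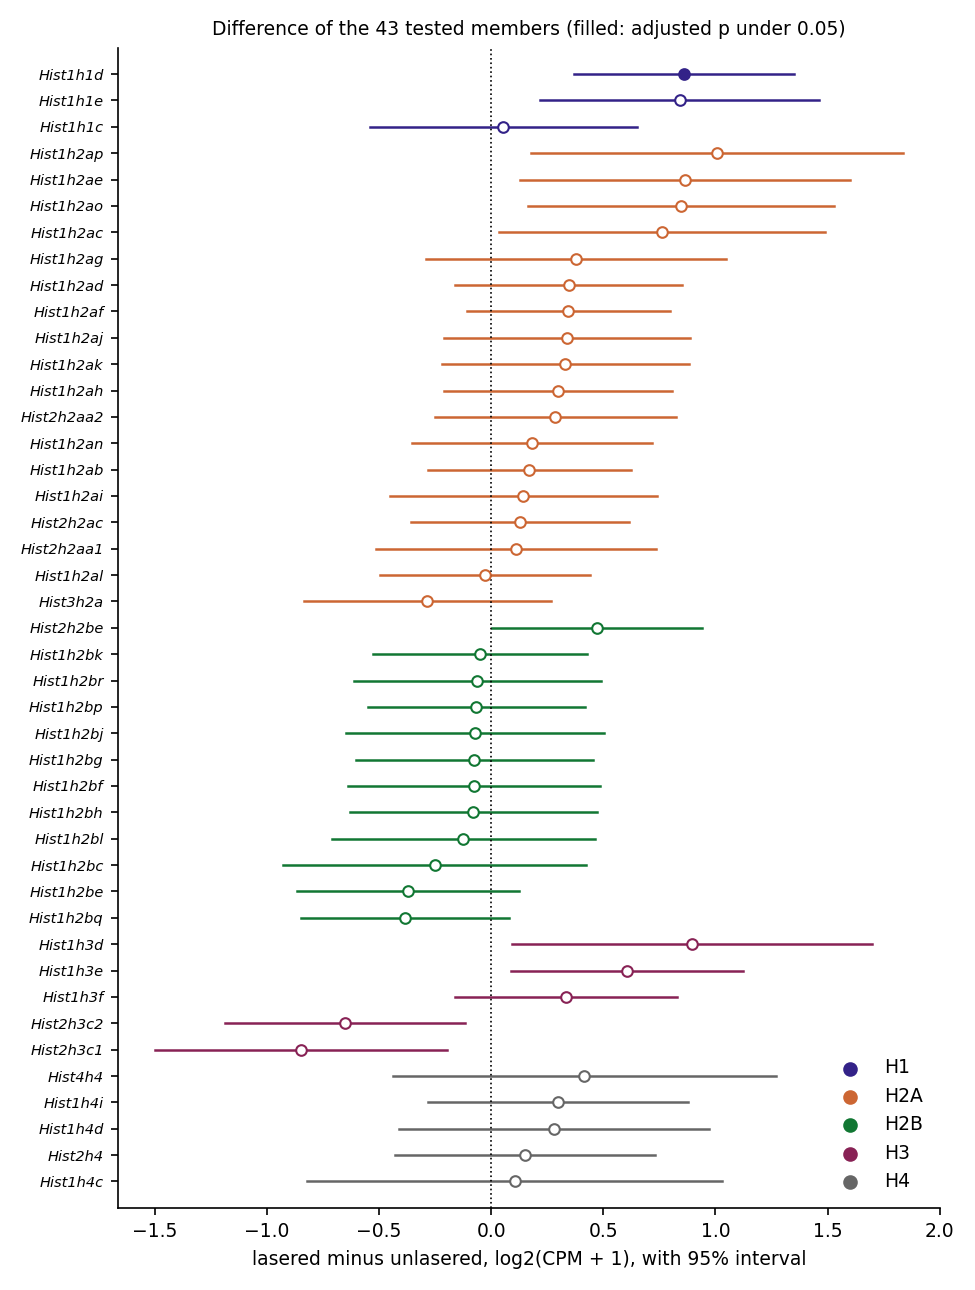
Difference between lasered and unlasered libraries in log2(CPM + 1) with its 95% interval for the 43 tested members, coloured by family, where positive values are higher in lasered libraries and a filled dot marks an adjusted p under 0.05. Only Hist1h1d is filled, and 11 of 12 H2B genes lie below 0, whereas 16 of 18 H2A genes lie above it. Of the 43, 12 reached the level for testing only with lasered libraries counted.

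Among the linker histone genes, Hist1h1d rose (ENSMUSG00000052565, chromosome 13, 23553262 to 23560686, protein-coding). It encodes a somatic H1 subtype. The RefSeq promoter printed above lies within these GENCODE coordinates. Over 7425 annotated exon bases, Hist1h1d averaged 0.641 CPM per kb and ranked 61 of the 70 members. Its level was 2.40, 3.74 and 2.64 CPM in unlasered and 6.91, 7.44, 4.81 and 5.36 CPM in lasered libraries. Every lasered library lay above every unlasered library, and the mean was 2.10-fold higher. The log2 difference was 0.86 (SE 0.22, adjusted p = 0.0486, limma). The call was lost whichever of the 7 libraries was left out, with adjusted p between 0.0521 and 0.137. Hist1h1d was highest in lasered libraries 1 and 2, as were the dendritic cell sum and Ccr2 given below.

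Hist1h1e, a further somatic H1 gene of the same cluster, was read at 5.19, 9.52 and 5.08 CPM in unlasered and at 14.3, 16.5, 8.84 and 10.4 CPM in lasered libraries. The groups overlapped because unlasered library 2 exceeded lasered library 3, and the difference did not pass (0.84, SE 0.28, adjusted p = 0.107, limma). Among the other libraries the groups did not overlap. Hist1h1c, the most abundant H1 gene, was read at 32.0, 64.7 and 28.2 CPM in unlasered and at 34.4, 43.4, 44.0 and 40.2 CPM in lasered libraries. Its difference was 0.05 with a 95% interval from -0.54 to 0.65 on the log2 scale. When unlasered library 2 was left out the groups did not overlap, and the difference was 0.41 (adjusted p = 0.230, limma). Hist1h1a and Hist1h1b, H1 genes known from dividing cells, stayed below 1 CPM everywhere. Hist1h1b had 0, 0.584 and 0 CPM in unlasered and 0.725, 0.512, 0.675 and 0.700 CPM in lasered libraries, and only unlasered library 2 reached the lasered range.

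Of 20 H2A genes, 18 were tested and 0 passed. Their log2 differences lay between -0.28 and 1.01 with a median of 0.31, and 16 were positive. Some of the 18, such as Hist1h2ah and Hist1h2ak, reached the level for testing only with lasered libraries counted, which favours positive differences. Without a filter on low values, 18 of 20 were positive, with a median of 0.30. The largest difference was in Hist1h2ap, with 4.16, 6.37 and 3.16 CPM in unlasered and 12.6, 15.5, 4.60 and 10.1 CPM in lasered libraries. The groups overlapped because unlasered library 2 exceeded lasered library 3, and the difference was 1.01 (SE 0.37, adjusted p = 0.139, limma). Among the remaining libraries they did not overlap, and the difference was 1.23 (adjusted p = 0.136, limma). Its near copy Hist1h2ao gave 4.65, 5.99 and 3.08 CPM against 11.1, 12.3, 5.23 and 8.08 CPM, and here too the overlap was between unlasered library 2 and lasered library 3 only. These genes share 93.1% and 93.5% of their 50-base windows with other genes, so the counting may divide reads between them and they are not independent.

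Hist1h2ac, the H2A gene with the most reads among those listed alone, was read at 12.5, 15.1 and 6.19 CPM in unlasered and at 19.2, 23.7, 11.7 and 22.7 CPM in lasered libraries. Lasered library 3 lay below unlasered libraries 1 and 2, and the difference was 0.76 (SE 0.32, adjusted p = 0.201, limma). It was 0.42 without unlasered library 3 and 1.00 without unlasered library 2. Its windows are shared with other genes for 14.1% only, although part of its reads is listed under the overlapping Gm24991. Hist1h2ae had 1.08, 2.10 and 1.17 CPM against 4.37, 5.52, 1.57 and 3.10 CPM, and only unlasered library 2 reached the lasered range. In the sum of H2A genes, leaving out the jointly listed members changed the comparison. Without Hist3h2a and Hist2h2aa1 the sum was 44.8, 57.9 and 30.1 CPM in unlasered and 77.7, 93.6, 42.9 and 73.9 CPM in lasered libraries, where lasered library 3 alone overlapped with the unlasered group. The gate kept CD45low cells, whereas dendritic cells are mostly known as CD45high. The 5 dendritic cell genes were all measured and summed to 30.7, 18.3 and 40.7 CPM in unlasered and to 126, 132, 34.1 and 31.0 CPM in lasered libraries. This sum was high in lasered libraries 1 and 2, mainly through Ccr7 (74.8 and 68.5 CPM) and Flt3 (15.5 and 27.5 CPM), whereas the differences of Zbtb46 (0.11) and Xcr1 (-0.44) did not follow it. Cd209a, the fifth, had 0.0979, 0 and 0.0833 CPM in unlasered and 7.61, 8.93, 2.87 and 0.242 CPM in lasered libraries. It was also highest in lasered libraries 1 and 2, and its groups did not overlap. Its difference was 2.09 (SE 0.62, adjusted p = 0.0825, limma). None of the 5 passed. Lasered libraries 1 and 2 were the libraries in which Hist1h2ap, Hist1h2ao and Hist1h2ae were also highest. The same held for Hist1h1d, the member that passed, and for Hist1h1e, Hist1h3e and Hist1h3d. These members were chosen after their values were seen, and no share over all genes tested was computed for this order. Other members differed, since Hist1h2ac was highest in lasered libraries 2 and 4 and Hist2h2be in lasered library 3 (11.4 CPM). The part of dendritic cells in these levels was not tested.

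Of 19 H2B genes, 12 were tested and 0 passed. 11 of the 12 log2 differences were negative and lay between -0.39 and -0.05, but this direction rested on unlasered library 2. Without that library 9 of 11 were positive, and the median moved from -0.08 to 0.17. Hist1h2be (chromosome 13, 23583670 to 23621124) was read at 14.4, 25.8 and 21.8 CPM in unlasered and at 15.2, 14.1, 18.9 and 13.6 CPM in lasered libraries, and part of its reads is listed jointly with Hist1h1e or Gm11398. The exception in direction was Hist2h2be (chromosome 3, 96221119 to 96223738), which has a polyadenylation signal, no stem-loop in the annotation and no window shared with another gene. It was read at 4.80, 7.94 and 7.38 CPM in unlasered and at 9.20, 8.71, 11.4 and 8.89 CPM in lasered libraries. The groups did not overlap, but the difference of 0.47 did not pass (SE 0.21, adjusted p = 0.219, limma). It was 0.28 without unlasered library 1 and 0.59 without unlasered library 2.

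H2A and H2B genes often lie head to head, so that both promoters lie in the same short stretch. 14 such pairs were found, of which Hist1h2aa with Hist1h2ba was left out because Hist1h2aa had hardly any reads. The other 13 had 172 to 301 bases between their annotated starts. The H2A difference was above the H2B difference in 11 of these 13, and over them the median log2 difference was 0.34 for H2A and -0.07 for H2B genes. For Hist1h2ac and Hist1h2bc, 250 bases apart, the H2A level was 0.336, 0.191 and 0.215 of the H2B level in unlasered libraries and 0.538, 0.562, 0.306 and 0.714 of it in lasered libraries. In these values lasered library 3 overlapped with the unlasered group. For Hist1h2ao and Hist1h2bq the ratio of H2A to H2B was 2.26, 1.90 and 1.66 in unlasered and 6.39, 7.10, 4.07 and 5.77 in lasered libraries. For Hist1h2ae and Hist1h2bg it was 0.386, 0.444 and 0.424 against 1.42, 1.36, 0.667 and 0.991. These 3 pairs were chosen after their values were seen. Over the 13 pairs, the ratio was higher in every lasered than in every unlasered library in 4. No such share was computed for other gene pairs, so whether 4 of 13 is unusual is not known. The ratio does not depend on the scaling between libraries. Both exceptions lay outside the Hist1 cluster, namely Hist3h2a with the pseudogene Hist3h2bb-ps and Hist2h2ac with Hist2h2be. Among the 9 pairs tested without unlasered library 2, the H2A difference was the larger in 8, with a median gap of 0.33, against 9 of 10 and 0.44 with all libraries. Because the members of a pair were chosen after the families had been seen and several share sequence with other pairs, the gap was not tested.

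**Figure D4:**
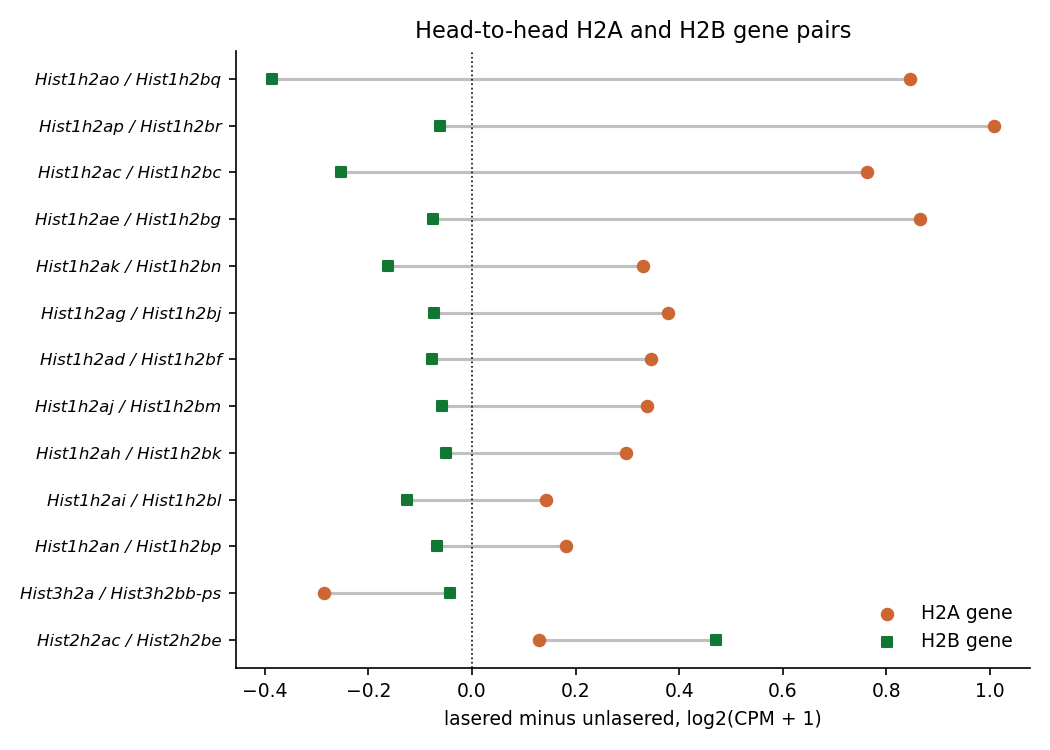
Difference between lasered and unlasered libraries in log2(CPM + 1) for 13 head-to-head pairs, with the H2A gene as an orange dot, the H2B gene as a green square and a grey line joining them. The H2A gene lies to the right in 11 pairs, with the widest gap for Hist1h2ao and Hist1h2bq.

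Of 12 H3 genes, 5 were tested and 0 passed, and their differences pointed in opposite directions in the Hist1 and Hist2 clusters. Hist1h3e, the highest H3 gene (chromosome 13, 23561534 to 23562369), was read at 4.50, 4.38 and 2.61 CPM in unlasered and at 6.71, 7.62, 4.77 and 6.09 CPM in lasered libraries. The groups did not overlap, and the difference was 0.61 (SE 0.23, adjusted p = 0.154, limma). The Hist2 genes showed the reverse order. Hist2h3c1 gave 3.57, 8.00 and 4.05 CPM in unlasered and 3.10, 2.70, 1.46 and 2.15 CPM in lasered libraries, and Hist2h3c2 gave 1.81, 2.92 and 1.17 CPM against 0.770, 1.14, 0.697 and 0.754 CPM. Their differences were -0.85 (SE 0.29, adjusted p = 0.117, limma) and -0.65 (SE 0.24, adjusted p = 0.138, limma), and without unlasered library 2 they were -0.55 and -0.43. Hist2h3c1 is listed only jointly with Gm20634, and its sequence is shared with that gene for 100% of windows, so both values describe this locus with its copies. The stem-loops of both genes, printed above, are identical.

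Of the 7 H3 genes too low for the test, the groups overlapped in 3 (Hist1h3a, Hist1h3i and Hist2h3b) and did not overlap in 4. In Hist1h3i the overlap rested on unlasered library 2. Hist1h3c had 0.245, 0.204 and 0.111 CPM (5, 7 and 4 reads) in unlasered and 0.499, 0.646, 0.566 and 0.619 CPM (22, 29, 26 and 23 reads) in lasered libraries. Hist1h3b had 3, 6 and 3 reads against 24, 21, 14 and 14 reads, Hist1h3h had 4, 4 and 5 against 11, 18, 13 and 18, and Hist1h3g had 2, 7 and 3 against 12, 11, 11 and 17. In each of the 4 genes every lasered library lay above every unlasered library in CPM as well. They were the 4 non-overlapping genes among 22 untested members with a read in every library, and 3.37% of all untested genes with such reads had this order. Hist1h3c passed without a filter on low values (adjusted p = 0.0384, limma) but not among genes with a mean of at least 10 reads (adjusted p = 0.116, limma). These genes share between 47.0% and 93.9% of their windows with other genes, and their counts are close to the floor in the unlasered group.

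Of 13 H4 genes, 5 were tested and 0 passed, and their log2 differences lay between 0.10 and 0.41. Hist1h4d, the highest (chromosome 13, 23581598 to 23582735), was read at 8.18, 17.4 and 8.61 CPM in unlasered and at 19.2, 15.2, 9.84 and 10.7 CPM in lasered libraries. The groups overlapped, and the difference of 0.28 had a 95% interval from -0.41 to 0.97. That overlap rested on unlasered library 2, without which the difference was 0.60 (adjusted p = 0.285, limma). The difference was smaller without unlasered library 1 (0.10), unlasered library 3 (0.13) or lasered library 1 (0.11). The H4 genes are known to encode largely the same protein.

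The 27 members not tested had means between 0.00384 and 0.970 CPM. They comprised 3 H1, 2 H2A, 7 H2B, 7 H3 and 8 H4 genes, and besides the 4 H3 genes above none of them had groups that did not overlap. Members with a stem-loop only had a median level of 2.64 CPM per kb, those with both elements 2.07, those with neither 1.59 and those with a polyadenylation signal only 0.861 CPM per kb. The ends of these transcripts are annotated unevenly, and the ranges of the 4 kinds overlapped in CPM.

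The genes that act with the clustered histones mostly make polyadenylated messengers. Of 11 replacement histone genes, 10 were tested, 1 rose and 0 fell. The gene that rose was Cenpa, the H3 variant of centromeres, with 6.71, 8.79 and 7.63 CPM in unlasered and 15.0, 15.1, 20.9 and 12.4 CPM in lasered libraries. The groups did not overlap, and the difference was 0.93 (SE 0.20, adjusted p = 0.0319, limma), with adjusted p between 0.0342 and 0.0846 when a library was left out. H3f3b, an H3.3 gene and the one with the most reads in the list, was read at 1042, 1015 and 755 CPM in unlasered and at 756, 791, 909 and 822 CPM in lasered libraries, with overlap.

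Of 14 histone mRNA processing genes, all were tested, 0 rose and 0 fell, and 2 (14.3%) were lower at an unadjusted p under 0.05, against 11.6% of all genes tested. They were Slbp, the stem-loop binding protein, which averaged 90.9 CPM without and 66.9 CPM with laser treatment (adjusted p = 0.142, limma), and Eri1, a nuclease that trims the stem-loop end (adjusted p = 0.160, limma). Both were named after their values were seen. Cpsf3, the nuclease that cuts histone precursors and the gene with the most reads in the list, had 136 ± 8.33 CPM (SD, n = 3) and 137 ± 23.0 CPM (SD, n = 4). Of 16 histone chaperone genes, 1 rose and 0 fell. Chaf1b, a subunit of the chaperone CAF-1 that places H3 and H4 on new DNA, had 2.84, 1.81 and 1.97 CPM in unlasered and 4.96, 4.79, 5.62 and 3.88 CPM in lasered libraries. Its groups did not overlap (0.86, SE 0.20, adjusted p = 0.0401, limma), and adjusted p lay between 0.0403 and 0.109 when a library was left out. The larger CAF-1 subunit Chaf1a did not pass (-0.13, adjusted p = 0.849, limma). Rbbp4, the chaperone gene with the most reads, had 165 ± 21.0 and 143 ± 10.3 CPM (SD, n = 3 and 4).

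At an unadjusted p under 0.05, 3 of 10 replacement histone genes and 3 of 16 chaperone genes were higher and 0 lower. Of 28 S phase genes, 1 rose and 0 fell, 4 were higher (14.3%, against 11.0% of all genes tested) and 0 lower at an unadjusted p under 0.05, and the median log2 difference was 0.08. E2f1, a transcription factor that switches on S phase genes, had 3.33, 2.92 and 3.28 CPM in unlasered and 7.91, 12.5, 11.3 and 7.62 CPM in lasered libraries. The groups did not overlap, and the difference of 1.35 (SE 0.22, adjusted p = 0.0117, limma) kept an adjusted p under 0.05 without any single library, between 0.0182 and 0.0447. Mcm6, a subunit of the replicative helicase and the gene with the most reads in the list, had 58.4, 55.3 and 58.8 CPM against 61.0, 53.5, 59.7 and 46.1 CPM, with overlap. The replication clamp gene Pcna had a difference of 0.01 (SE 0.16, adjusted p = 0.969, limma). The summed level of the list was between 417 and 508 CPM in unlasered and between 420 and 513 CPM in lasered libraries. The summed level of 5 monocyte genes was 96.3, 83.1 and 351 CPM in unlasered and 892, 698, 625 and 259 CPM in lasered libraries, with overlap. Of the 4 tested, 1 rose, namely Fn1, which made up most of their sum in lasered libraries and is not particular to monocytes. Fn1 was read at 41.1, 65.6 and 288 CPM in unlasered and at 776, 525, 593 and 248 CPM in lasered libraries. Ly6c2, a marker of the Ly6C+ monocytes that the gate removes, stayed below 1 CPM in every library. Ccr2, a chemokine receptor of these monocytes, did not pass but was read at 5.63, 6.37 and 14.2 CPM in unlasered and at 81.5, 128, 19.7 and 7.57 CPM in lasered libraries, highest in lasered libraries 1 and 2. Its difference was 2.03 (SE 0.83, adjusted p = 0.186, limma). The part of other cells in the levels of E2f1, Cenpa, Chaf1b and Hist1h1d was not tested.

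**Figure D5:**
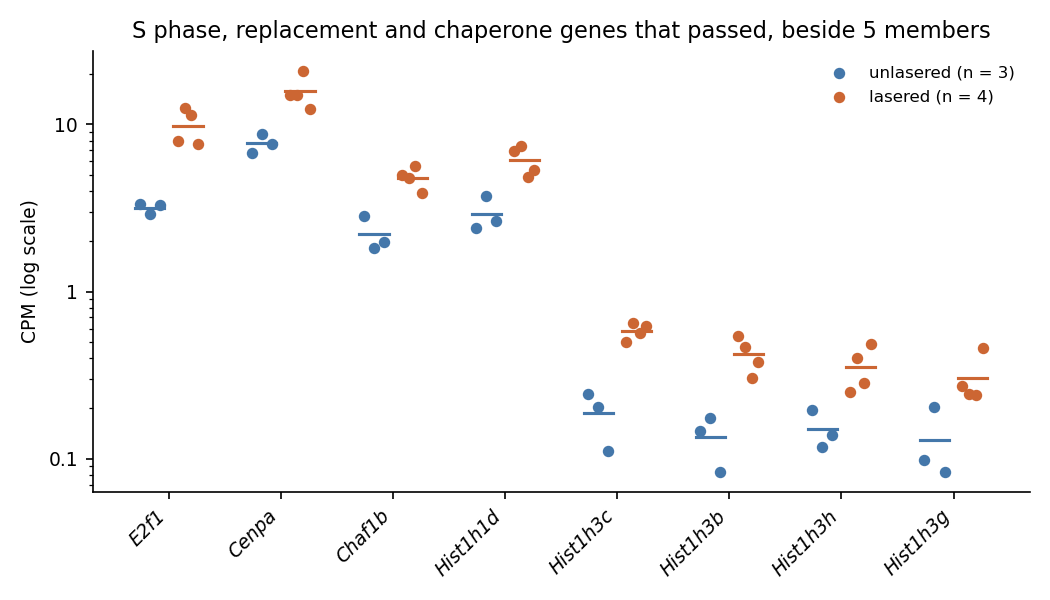
Level in CPM (log axis) of E2f1, Cenpa and Chaf1b, the genes of the accompanying lists that passed, and of 5 clustered histone genes, in 3 unlasered (blue) and 4 lasered (orange) libraries with group means as bars. The groups do not overlap in any of the 8 genes, but the 5 clustered histone genes were chosen with that order already seen. The 4 H3 genes at the right had at most 29 reads in a library and were not tested.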

How the data were processed

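RNA-seq of sorted rMG in 7 libraries (3 unlasered, 4 lasered) was analysed, with groups taken from the sample labels. The cDNA was made with the SMARTer Ultra Low Input kit and tagmented with Nextera XT. Adapters (cutadapt) and duplicate reads (FastUniq) were removed by the authors. They then aligned with bowtie2, used HTSeq with Ensembl annotation version 90 for counting and normalised with DESeq2. The labels name GRCm38, and versions of these tools are not given in the sources used here. Mapping of reads shared by near-identical genes depends on the aligner, and HTSeq lists reads of overlapping genes jointly, here in 5794 joint entries, each under a single symbol. The deposited values are headed TPM but are CPM, since 100% were whole multiples (tolerance 1e-04) of 1 step per library, whatever the gene length.

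The groups were tested in R 4.3.3 with limma 3.58.1 (trend and robust options of empirical Bayes, statmod 1.5.0) on log2(CPM + 1). A gene entered the fit when 3 or more libraries held at least 1 CPM, which left 17496. Tests were two-sided with Benjamini-Hochberg adjustment over all genes tested. Differences on this scale understate changes of low genes. The fit was tested on simulated data.

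Alternatives were a pseudocount of 0.1, no filter, a mean minimum of 10 reads, replicate number as block, median-of-ratios scaling, edgeR 4.0.16 and DESeq2 1.42.0 on recovered reads, genes listed alone, and each library left out. Unadjusted p-values, voom, the family and pair medians and group overlap without unlasered library 2 were added after seeing the data. Named genes are members called, the 5 highest, the highest of each family, the 5 largest differences without overlap, the called genes (at most 3 a direction) and the highest gene of each accompanying list, and Irf8. Further members and list genes are named to describe their group, and were chosen after their values were seen. The members and lists were chosen with earlier results of these data known.

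Sequence features came from GENCODE M21 transcripts (GRCm38) and RefSeq promoters, 250 bases before to 50 after each start. These steps and the figures used pandas 2.3.3, numpy 2.4.6 and matplotlib 3.10.9 under Python 3.11.15. The number of columns left unmapped was 0.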

Additional observations from a re-analysis of the deposited data

Results flagged for a closer look

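In 25 levels examined for the 4 lasered libraries, 4 had a library far from the other 3 by Dixon's criterion, which chance alone marks in about 1 of 20. Lasered library 2 was high for Hist2h3c2 at 1.14 CPM and for the summed H1 genes at 68.0 CPM. Lasered library 3 was low for the summed H2A genes at 102 CPM. Lasered library 4 was high for Irf8 at 582 CPM.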

How the results depend on the processing

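The count of members that rose (1) was also 1 with a pseudocount of 0.1, median-of-ratios scaling, edgeR and genes listed alone, in each case Hist1h1d. It was 3 with DESeq2 (Hist1h1d, Hist1h1e and Hist1h2ap), 1 without a filter (Hist1h3c), 0 with a mean of at least 10 reads, 0 with voom, and between 0 and 1 when a library was left out, where the 1 was Hist1h2ap. At an unadjusted p, 9 members were higher and 2 lower. No member fell at an adjusted p under 0.05 in any of these fits. Over all genes, 359 rose and 216 fell without a filter, 1177 rose and 1141 fell with DESeq2, and between 150 and 815 rose and between 114 and 433 fell when a library was left out. Of the 69 genes in the accompanying lists, 1 rose without a filter, 5 with median-of-ratios scaling and 7 with DESeq2. When a library was left out, between 1 and 3 rose and between 0 and 1 fell, and the gene that fell was Slbp without unlasered library 3. Where no reason is given, the cause was not tested.

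With the replicate number as a block, 0 members and 0 genes of the lists were called, and over all genes 2 rose and 1 fell. The numbers are shared by libraries 1 to 3 of both groups, and libraries with the same number had correlations of their deviations of -0.18, -0.13 and -0.02, so the libraries share a number only. Lasered library 4 has no partner and drops out of that fit.

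The sum of H2A genes averaged 44.3 CPM without and 72.0 CPM with laser treatment over genes listed alone, which leaves out Hist3h2a. The lasered sums then averaged 63.8 CPM for H2B and 258 CPM for all members. In unlasered libraries 1, 2 and 3 these sums were 57.1, 122 and 50.9 CPM for H2B and 181, 330 and 151 CPM for all members. When a library was left out, log2 differences lay between -0.56 and 0.013 for Hist3h2a, -0.55 and 0.16 for Hist1h2bc, -0.17 and 0.41 for Hist1h1c, -0.11 and 0.059 for Cpsf3 and -0.12 and 0.013 for Mcm6, each crossing 0. Hist1h1c was at -0.034 with edgeR and -0.035 with DESeq2. Cpsf3 was at 0.025 with the block, 0.079 with median-of-ratios scaling, 0.021 with edgeR, 0.019 with DESeq2 and 0.0067 with voom, and Mcm6 was at 0.013 with the block and 0.013 with median-of-ratios scaling. Over the alternatives the median difference lay between 0.02 and 0.35 for all tested members, between 0.18 and 0.53 for H2A, between -0.20 and 0.17 for H2B, and between 0.33 and 0.78 for the gap within tested pairs. At this depth the 27 untested members rest on few reads.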
